A study of Homo sapiens with 4 samples.

Results

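Protein tyrosine phosphatases and PIAS proteins are counted among the brakes on cytokine signalling, and 10 of their genes were followed here through IL-21 treatment of a lymphoma line and of its IL-21-resistant derivative. The genes were fixed by name, as 6 phosphatases (PTPN1, PTPN2, PTPN6, PTPN11, PTPN22 and PTPRC) and 4 PIAS genes (PIAS1, PIAS2, PIAS3 and PIAS4). They were read from 20 probes out of 31095 on the array. Of these probes, 14 had a value on all 4 arrays, 3 on some arrays and 3 on none. This left 9 of the 10 genes among the 13446 genes measured on every array. PTPN22 was the exception, being blank on the treated RC-K8-R array.

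RC-K8 is an established diffuse large B-cell lymphoma line that dies by apoptosis when given IL-21. RC-K8-R was derived from it by 10 weeks of culture with rising amounts of the cytokine, and the labels do not say whether it is 1 clone or a mixed population. Each line was left untreated or received IL-21 at 100 ng/mL for 6 h, giving 4 conditions with 1 two-colour Agilent array each and no replicates. Sample cDNA carried Cy5 and a human reference RNA, the same on every array, carried Cy3. No test between conditions could therefore be run, and every difference below sets 1 array against another, without a measure of how much cultures vary.

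IL-21 signals through a receptor built from IL21R and the common gamma chain, which activates JAK1 and JAK3 and then STAT transcription factors by tyrosine phosphorylation. Phosphatases remove those phosphates from the kinases, from the STATs or from upstream SRC family kinases. PIAS proteins bind activated STATs and act as ligases for the small modifier SUMO. Unlike the SOCS inhibitors, which STATs induce as feedback, most of these genes are transcribed before any cytokine arrives.

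Levels are log2 ratios of sample to reference, centred on each array's median. They can be compared between arrays for a probe but not between probes. Between 25246 and 26555 probes had a value per array, and the SD of the ratios was 1.26 and 1.31 on the RC-K8 arrays against 1.52 and 1.56 on those of RC-K8-R, so the latter had the wider spread. The labelled cell type was checked on marker genes. The 7 measured B cell markers had a median log2 ratio of 0.95 in untreated RC-K8 and 1.73 in untreated RC-K8-R, whereas 5 hepatocyte markers were at -5.69 and -6.40. Single B cell markers ran from -2.06 to 6.20 in untreated RC-K8 and from -2.44 to 7.68 in untreated RC-K8-R, so not all lay above the reference. The 4 myeloid markers were at 0.28 and -0.58, so this list did not lie far below the reference in RC-K8. The 5 T and NK cell markers were at -0.71 and -2.74. Taken gene by gene, B cell markers had a median difference of -0.75 with IL-21 in RC-K8 (5 of 7 below 0, 2 of them 2-fold lower and 1 of 7 2-fold higher) and 0.28 in RC-K8-R. Against RC-K8, they were higher in RC-K8-R by a median of 0.78 untreated and 1.96 treated, with 3 and 6 of 7 at 2-fold higher. Of all genes, 3.09% were at 2-fold with IL-21 in RC-K8 and 3.35% were 2-fold higher in untreated RC-K8-R. Between treated lines 17.8% were at 2-fold in either direction. The part of these marker shifts in the values below was not tested.

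Because STATs and MYC lie downstream of IL-21, the promoters of 9 of the genes (all but PTPN11) were searched for the STAT consensus TTCNNNGAA and the E-box CACGTG, the sequence bound by MYC and MAX. Both motifs read the same on either strand in their fixed letters and were searched on both strands. The window was the 250 bases before each RefSeq gene start in GRCh38.p14, with 12 windows in all because some genes had more than 1 start. The PTPN2 window is AT-rich (35.2% G or C) and may not be that gene's main promoter. No window of the 9 genes held the STAT consensus, and that of PIAS4 alone held an E-box. Of 35116 RefSeq promoter windows of this length, 6.57% held the STAT consensus and 6.34% the E-box. A match is a description of the letters and not evidence of binding. Among the 9 of the 10 genes with a value on all 4 arrays, PTPN1 had the largest IL-21 difference in RC-K8. The windows of PTPN1 and of PIAS4, with its E-box in capitals, are shown 5′ to 3′ on the plus strand, at chr20:50510133-50510382 and chr19:4007486-4007735.
PTPN1: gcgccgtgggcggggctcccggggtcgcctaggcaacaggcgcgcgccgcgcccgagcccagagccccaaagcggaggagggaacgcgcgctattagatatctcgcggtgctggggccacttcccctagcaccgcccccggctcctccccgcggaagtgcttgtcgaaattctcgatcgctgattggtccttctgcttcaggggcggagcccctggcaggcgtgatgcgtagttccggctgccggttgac
PIAS4: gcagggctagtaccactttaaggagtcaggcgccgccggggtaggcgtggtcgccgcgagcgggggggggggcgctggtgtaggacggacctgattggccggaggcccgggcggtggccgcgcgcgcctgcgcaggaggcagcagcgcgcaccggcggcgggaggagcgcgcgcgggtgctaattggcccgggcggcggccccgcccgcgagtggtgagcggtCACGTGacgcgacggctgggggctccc

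IL-21 against untreated RC-K8 was the first comparison, asking how the sensitive line's brakes stood after 6 h of the cytokine. No measured gene of the 9 reached 2-fold in either direction. Of all 13446 genes, 3.09% did. PTPN1 and PTPN2 had the largest positive differences, both about 1.4-fold (1.42 and 1.40), and PIAS1 the largest negative one, 1.34-fold lower. Among the phosphatases 4 of 5 were above 0, and among the PIAS genes 3 of 4 were below 0. Of all genes, 45.2% were above 0 and 54.7% below.

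PTPN1 encodes PTP1B, an enzyme of the endoplasmic reticulum surface that dephosphorylates JAK2, TYK2 and other kinases. Its probe read 1.65 in RC-K8 without IL-21 and 2.15 with it, and 1.97 and 2.05 in RC-K8-R in that order, as log2 ratios. Untreated RC-K8 was the lowest array and treated RC-K8 the highest. The log2 difference with IL-21 in RC-K8 was 0.50, and 7.89% of all genes were at least as much higher.

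PTPN2 encodes TC-PTP, which acts on JAK1, JAK3 and nuclear STATs. One probe (A_23_P207940) read 0.57, 0.92, 0.33 and 0.30 in the same order of the 4 arrays, and the other probe with 4 values (A_32_P1445) read 0.20, 0.83, 0.47 and 0.48. On both, treated RC-K8 was the highest array. The gene's log2 difference with IL-21 in RC-K8 was 0.49 (SD between the 2 probes 0.19), a size that 8.40% of all genes reached in that direction. A further PTPN2 probe (A_23_P309701) was blank on both RC-K8 arrays and read 0.70 and 0.80 in RC-K8-R without and with IL-21.

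PTPRC encodes CD45, the receptor-type phosphatase of blood cells that keeps SRC family kinases active and can also dephosphorylate JAKs. Its probe read 2.01 and 2.33 in RC-K8 without and with IL-21, and 2.56 and 2.50 in RC-K8-R. All 4 arrays lay above the reference and both RC-K8-R arrays lay above both RC-K8 arrays, an order that did not hold after quantile normalization, loess or equal spread per array. The IL-21 difference in RC-K8 was 0.32, and 15.2% of genes were at least as much higher.

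PTPN22, the lymphoid phosphatase that acts with the kinase CSK on SRC family kinases, could be compared on fewer arrays. Its probe read -0.54 without and -0.01 with IL-21 in RC-K8 and -0.82 in untreated RC-K8-R, and was blank on the remaining array. The IL-21 difference in RC-K8 was 0.54, close to those of PTPN1 and PTPN2. No response in RC-K8-R could be formed.

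PTPN6 and PTPN11 encode SHP-1 and SHP-2, which dock on phosphorylated receptors through paired SH2 domains. SHP-1 is the inhibitory enzyme of blood cells, while SHP-2 more often promotes ERK signalling. PTPN6 read -1.39 and -1.62 in RC-K8 without and with IL-21 and -0.97 and -0.99 in RC-K8-R. Its level was thus below the reference on all 4 arrays, and lower on both RC-K8 arrays than on both of RC-K8-R. The IL-21 difference in RC-K8 was -0.24, and 24.9% of genes were at least as much lower, so PTPN6 stood within the bulk of genes.

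The 3 PTPN11 probes with values did not read alike. Probe A_23_P99027 stayed between 0.51 and 0.66 on all arrays, and A_32_P61757 read 0.24, 0.62, 0.49 and 0.32. Probe A_23_P105436 read -1.07 and -0.95 in RC-K8 but 0.36 and 0.73 in RC-K8-R, setting the lines apart where the other probes did not. The IL-21 difference of the gene in RC-K8 was 0.13 (SD between probes 0.17), with all 3 probes above 0.

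PIAS1, a SUMO ligase that limits the binding of activated STATs to DNA, read 0.11 and -0.18 in RC-K8 without and with IL-21 on probe A_23_P163347 and 0.14 and -0.43 on A_23_P163353. Both probes were lowest in treated RC-K8. The gene's difference was -0.43 (SD between probes 0.20), and 11.2% of genes were at least as much lower. PIAS3, an inhibitor of STAT3 binding to DNA, read -1.21 and -1.57 on the probe with 4 values, a difference of -0.37. Its array order had treated RC-K8 lowest as well, and 14.4% of genes were at least as much lower.

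PIAS4, also called PIASy, read -0.04 and -0.27 in RC-K8 without and with IL-21, a difference of -0.23 that 25.4% of genes reached in that direction. PIAS2, also called PIASx, gave no direction, since its probes were at -0.10 and 0.18. The median over the 9 genes was 0.04, against -0.04 over all genes. It joins phosphatases with a median of 0.32 and PIAS genes with a median of -0.30. PTPN6 (-0.24) and PIAS2 (0.04) had the other sign from their group's median. The median absolute difference was 0.32 for the 9 genes and 0.21 for all genes. For scale, the SD between probes of 1 gene in this comparison had a median of 0.16 over 4379 genes, a figure that says nothing of how cultures vary.

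**Figure D1:**
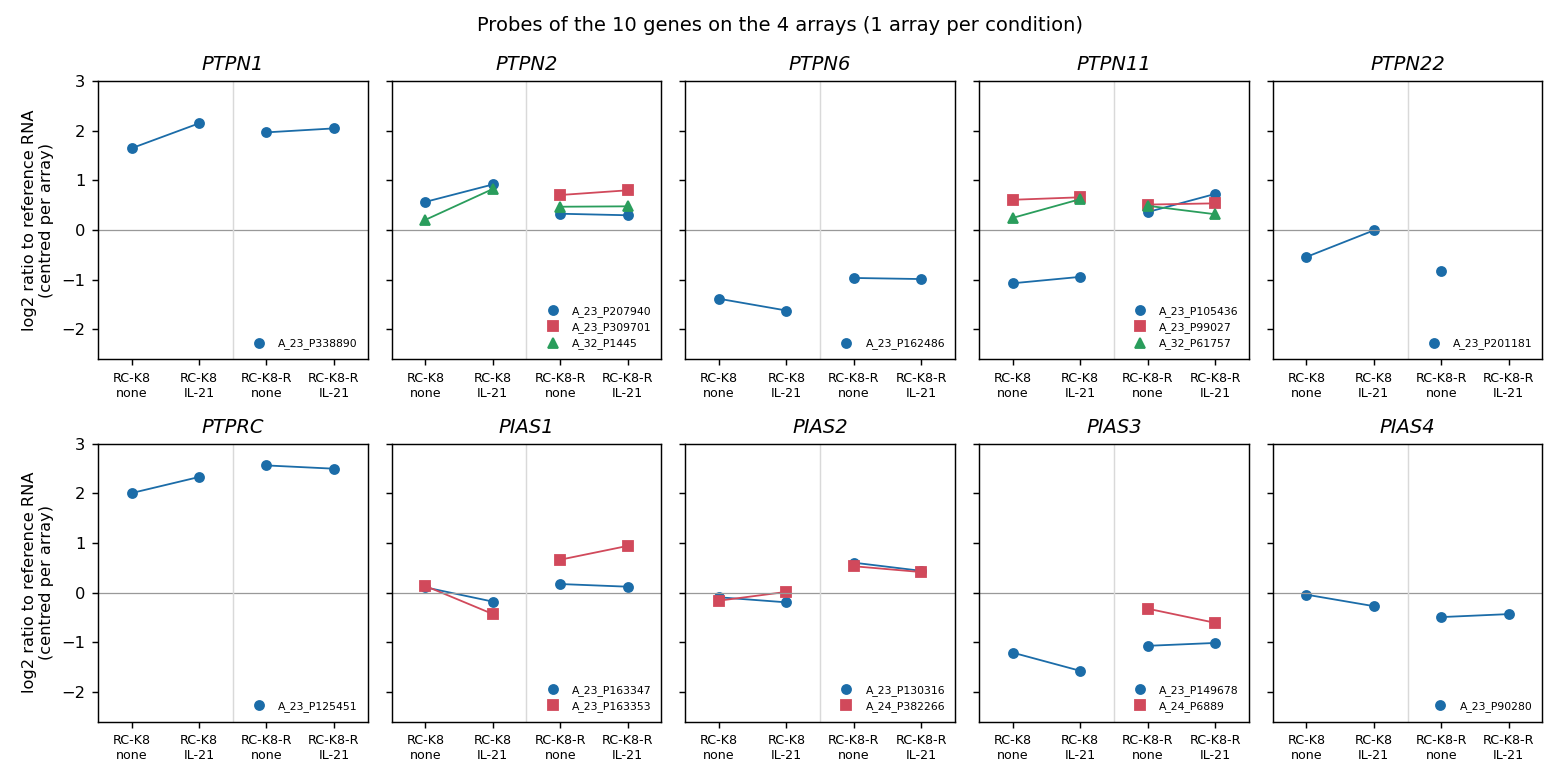
Each panel shows 1 gene, each symbol 1 probe, with the centred log2 ratio of sample to reference RNA on the y axis and the 4 arrays on the x axis (1 array per condition, no error bars). Lines join untreated and treated arrays of a line; PTPN11 probe A_23_P105436 lies at -1.07 and -0.95 in the parental line and at 0.36 and 0.73 in the resistant line, whereas probe A_23_P99027 stays between 0.51 and 0.66 on all 4.

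The response of RC-K8-R to IL-21 was the next comparison, asking how the same genes stood in the resistant line. All 9 gene differences lay between -0.14 (PIAS2) and 0.11 (PIAS1), and none reached 2-fold, against 0.945% of all genes. PTPN1 was at 0.08, PTPN2 at -0.01, PTPRC at -0.07, PTPN6 at -0.02 and PTPN11 at 0.03, the last from probes between -0.17 and 0.37. The median absolute difference was 0.06 for the 9 genes and 0.11 for all genes. Both are below the median SD between probes of 1 gene in this comparison, 0.12.

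PIAS3 (0.06) and PIAS4 (0.06) were slightly above 0 in RC-K8-R. A further PIAS3 probe (A_24_P6889), blank on both RC-K8 arrays, went the other way, from -0.32 to -0.61 with IL-21, so no direction is read for PIAS3. The 2 PIAS1 probes gave -0.05 and 0.28, and the 2 PIAS2 probes -0.17 and -0.12.

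**Figure D2:**
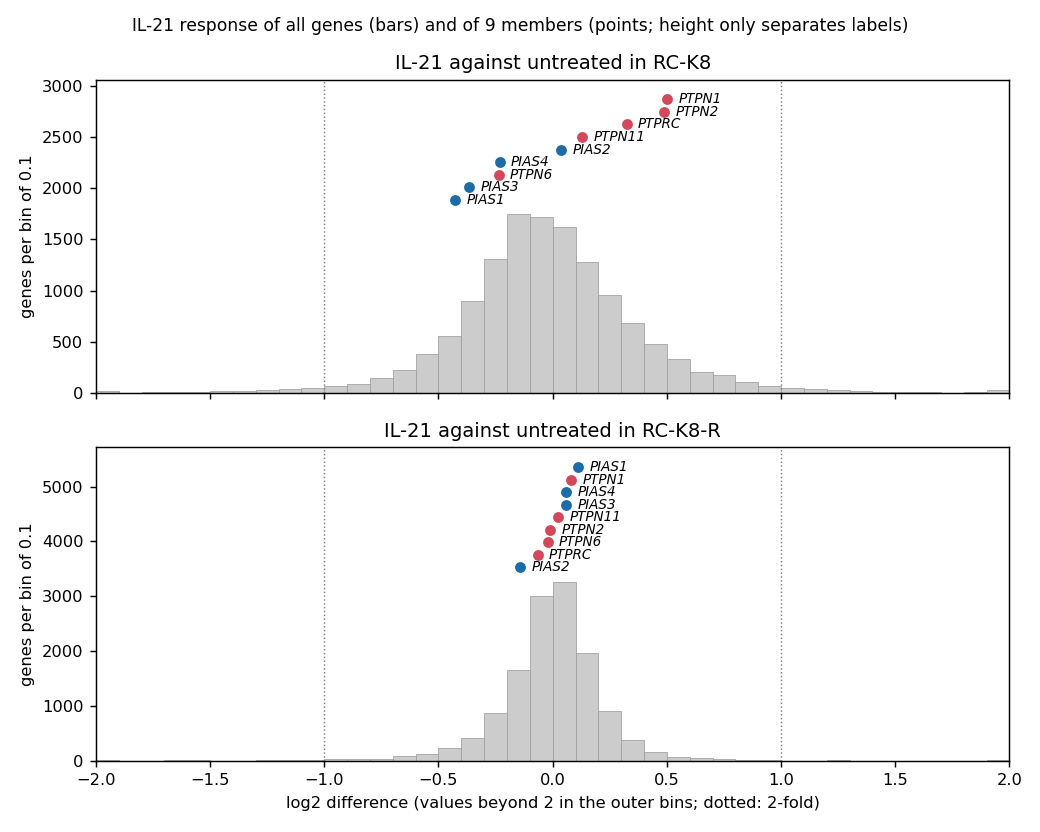
Bars count all 13446 genes by their log2 difference with IL-21 (x axis) in bins of 0.1, separately for each line; points mark the 9 genes (red for phosphatases, blue for PIAS), and their height has no meaning. The genes spread from -0.43 to 0.50 in RC-K8 and from -0.14 to 0.11 in RC-K8-R, inside the dotted 2-fold lines in both.

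Taken as the response of RC-K8-R minus that of RC-K8, the difference of responses was -0.42 for PTPN1, -0.50 for PTPN2, -0.39 for PTPRC and -0.03 for PTPN11. It was 0.22 for PTPN6, 0.54 for PIAS1, 0.42 for PIAS3 and 0.29 for PIAS4, and -0.18 for PIAS2. None of the 9 genes reached 2-fold, while 4.77% of all genes did. PIAS1 had the largest size, and 9.58% of all genes were at least as far in its direction. Its probes disagreed in size, at 0.23 and 0.84.

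The untreated lines were compared to ask how RC-K8-R differed before treatment. This comparison shares the untreated RC-K8 array with the IL-21 response of RC-K8. No gene of the 9 was 2-fold different between untreated lines, against 13.5% of all genes. At 1.5-fold 1 of the 9, PIAS2, was higher in RC-K8-R, against 13.6% of all genes higher at that size, so this share is near the background. The median over the 9 genes was 0.30, against 0.05 over all genes, and 8 of 9 were above 0 against 53.4% of all genes. Both depended on the scaling: the median was 0.18 with 6 of 9 above 0 after quantile normalization, and 0.11 with 6 of 9 after a loess correction.

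PIAS2 probes read -0.09 and -0.16 in untreated RC-K8 and 0.60 and 0.53 in untreated RC-K8-R, so both gave about the same log2 difference, 0.70 and 0.69. With IL-21 they were at -0.20 and 0.02 in RC-K8 and 0.44 and 0.42 in RC-K8-R, again higher in RC-K8-R on both. PTPRC was 0.56 higher in untreated RC-K8-R, but 0.01 after quantile normalization and 0.00 after loess, so no direction is read. PTPN6 was 0.42 higher, and 22.3% of genes were at least as much higher.

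PTPN1 (0.32) and PTPN2 (0.01) also depended on the scaling. PTPN1 was at -0.12 after quantile normalization and -0.18 after loess, and the PTPN2 probes were at -0.24 and 0.27. PIAS4 was lower in untreated RC-K8-R (-0.45), reading -0.04 and -0.49, with 24.8% of genes at least as much lower. PIAS1 was at 0.30 (SD between probes 0.33) and PIAS3 at 0.14. PTPN22 had a difference of -0.28 from its lone measured probe.

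PTPN11 probe A_23_P105436 was 2.70-fold higher in untreated RC-K8-R (log2 1.43) and 3.18-fold higher with IL-21 (1.67). The other probes of the gene were at -0.10 and 0.24 without IL-21 and -0.12 and -0.30 with it. All are annotated to 1 transcript, but where on it each probe lies was not checked. Per probe, 14.7% of all probes were 2-fold different between untreated lines and 19.1% between treated lines. The gene value was 0.24 untreated (SD between probes 0.80) and -0.12 treated (SD 1.09), so the SD exceeded the value in both and no gene-level difference is read.

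**Figure D3:**
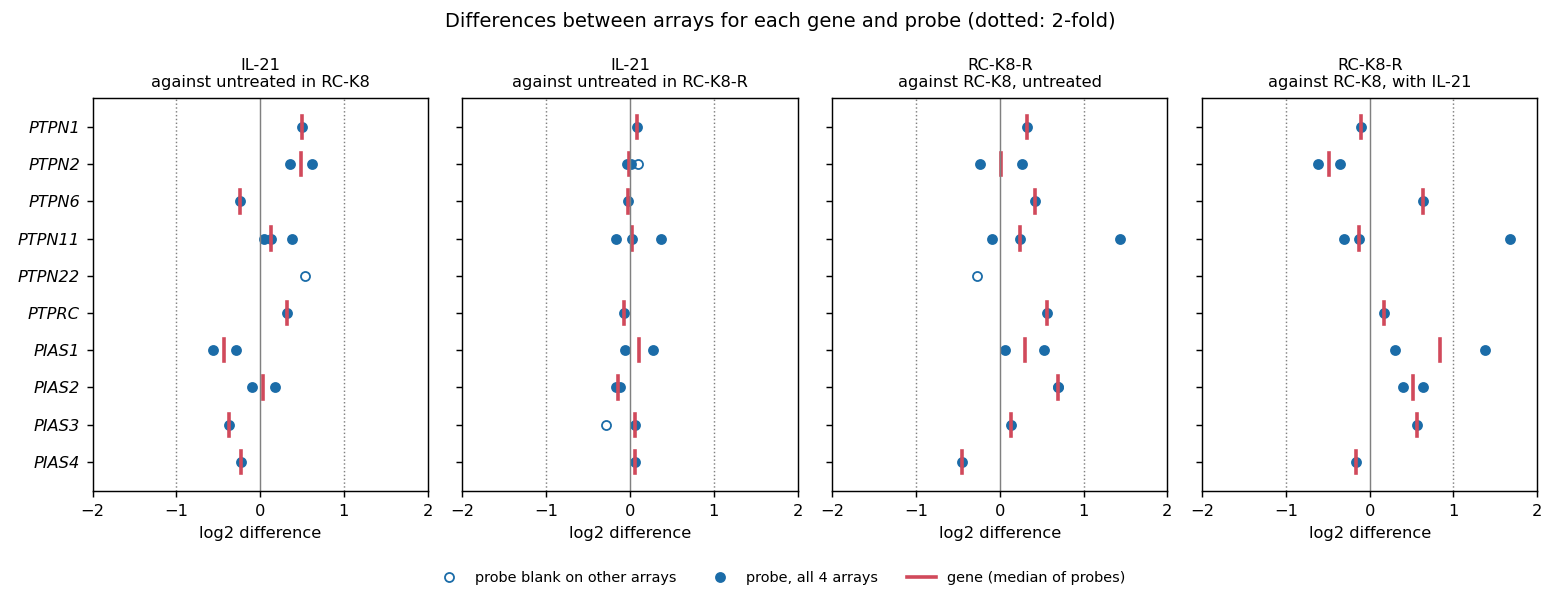
Log2 differences (x axis) of each gene (rows) in 4 comparisons, with 1 point per probe, open where the probe was blank on other arrays, and a red bar for the median of a gene's probes on all 4 arrays. No red bar passes the dotted 2-fold lines; 1 PTPN11 probe does so in both comparisons between lines (1.43 and 1.67) and 1 PIAS1 probe in treated cells (1.37).

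Between treated lines the measured genes ranged from -0.48 (PTPN2) to 0.84 (PIAS1). None reached 2-fold, against 17.8% of all genes. At 1.5-fold PIAS1 (1.79-fold) and PTPN6 (1.55-fold) were higher in RC-K8-R, as were 18% of all genes, so 2 of 9 is near the background. PIAS1 rested on probes at 0.30 and 1.37. PIAS3 (0.56) and PIAS2 (0.52) were higher in treated RC-K8-R too, with 19.0% and 20.7% of genes at least as much higher. PTPN1 was at -0.10, but -0.64 after quantile normalization and -0.69 after loess, and PIAS4 was at -0.16. PTPRC was at 0.17 and turned to -0.50 after quantile normalization and -0.57 after loess, so no direction is read.

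By the rule of smallest distance between 4-array profiles, each taken around its own mean, the genes nearest to PIAS1 were FAM169A, IFT27 and ANXA2R. The Euclidean distances were 0.04 for each after rounding (0.0353, 0.0428 and 0.0431 on the log2 scale, over 4 arrays). FAM169A had an IL-21 difference of -0.46 in the parental line and 0.08 in the resistant one. Likeness over 4 arrays is a description only.

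Other genes of the pathway were read from 8 lists. Of all genes, 3.09% were at 2-fold with IL-21 in RC-K8, 0.945% in RC-K8-R and 13.5% between untreated lines. SOCS genes, the STAT-induced feedback inhibitors, had a median log2 difference of 0.28 over 8 measured in RC-K8 with IL-21, 1 of them 2-fold higher and none 2-fold lower. That gene was SOCS3, measured on 1 probe. SOCS3 read -1.82 untreated and 1.31 treated in RC-K8 (a difference of 3.13) but -2.21 and -2.03 in RC-K8-R. In RC-K8-R the SOCS median was 0.18, with none at 2-fold. Among 10 measured IL-21 receptor, JAK and STAT genes, STAT3 was the 1 gene at 2-fold in RC-K8, higher by 1.07 on 3 probes, and its difference in RC-K8-R was -0.01. The receptor chain IL2RG was the 1 at 2-fold between untreated lines, lower in RC-K8-R at -2.46 against 0.80, on 1 probe.

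SRC family kinases and CSK partners, on which PTPRC, PTPN22 and CSK converge, included both larger positive and negative values. In RC-K8 with IL-21, 2 of 9 were 2-fold higher and 1 was 2-fold lower, against 3.09% of all genes at 2-fold. The median was -0.04. LYN, the main SRC family kinase of B cells, read 1.87 untreated and 3.73 treated in RC-K8 and 2.76 and 2.93 in RC-K8-R. PAG1, the membrane anchor that recruits CSK, read -0.52 and 1.43 in RC-K8 and -1.0 and -0.98 in RC-K8-R. UBASH3A, a phosphatase-like regulator best known from T cells, was the lower one (-1.18), and it was at -0.92 in RC-K8-R. It lay below the reference throughout, at -1.4 and -2.6 in RC-K8 and -3.5 and -4.4 in RC-K8-R. CSK itself read 1.06 and 0.39 in RC-K8 and 2.19 and 2.43 in RC-K8-R, and was 2-fold higher in RC-K8-R both untreated (1.13) and treated (2.03). Each of these 4 genes had 1 probe. In RC-K8-R with IL-21 none of the 9 was at 2-fold.

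Receptors and adaptors that recruit SHP-1 or SHP-2 had a median of -0.23 over 8 measured in RC-K8. Of these, 2 were 2-fold lower and none higher, against 3.09% of all genes at 2-fold. GAB3, a docking adaptor, read 3.55 and 2.43 in RC-K8 and 4.64 and 4.70 in RC-K8-R, on 1 probe. SIRPA, an inhibitory receptor of myeloid cells, was at -1.59 as the median of 3 probes that ranged from -1.63 to -0.20. In RC-K8-R the list's median was 0.03, with none at 2-fold. CEACAM1, an inhibitory receptor with ITIM motifs, was lower in untreated RC-K8-R at -1.36, on 3 probes between -1.52 and -1.07.

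Other phosphatases gave few large values in RC-K8. Of 8 other non-receptor phosphatases measured, PTPN21 was 2-fold lower (-1.72 on 1 probe) and none was higher, with a median of -0.14. Of 12 other receptor-type phosphatases none was at 2-fold in RC-K8, and the median was 0.18. In RC-K8-R the calls were PTPN13 (-1.44) and PTPRM (-2.06) in the negative direction, and PTPRG (1.29) and PTPN14 (1.03) in the positive. Each of these genes read far below the reference, at -1.75 or lower on both RC-K8-R arrays, and PTPRM read -4.52 and -6.58. Of all genes, 0.945% were at 2-fold with IL-21 in RC-K8-R. That share was 0.236% when genes with a mean log2 ratio below -2 were left out. The PTPN14 probes disagreed, at 0.07 and 1.99.

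Between untreated lines, 4 of the 12 receptor-type phosphatases were 2-fold lower in RC-K8-R (PTPRG, PTPRH, PTPRU and PTPRZ1) and 1 was higher (PTPRB). Among the non-receptor ones PTPN14 was 2-fold lower, at -2.06 on 2 probes. Of all genes, 10.2% were 2-fold lower and 3.35% higher in this comparison. The SUMO pathway, which supplies the modifier that PIAS ligases attach, had no member of 10 measured at 2-fold in any of the 5 comparisons, with medians of 0.05 in RC-K8 with IL-21 and 0.20 between untreated lines.

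The remaining restrainers of cytokine signalling had a median of -0.45 over 5 measured in RC-K8 with none at 2-fold, and 0.01 in RC-K8-R. USP18, an inhibitor of interferon receptor signalling, was lower in untreated RC-K8-R (-1.99, from probes at -2.69 and -1.29). CBL (1.62) and CBLB (1.12), ubiquitin ligases that mark activated kinases for degradation, were 2-fold higher in treated RC-K8-R than in treated RC-K8, each on 2 probes above 0.

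Between treated lines, where 17.8% of all genes passed 2-fold, IL2RG (-2.80), PAG1 (-2.41), UBASH3A (-1.81) and USP18 (-1.07) were lower in RC-K8-R. Among the kinases and phosphatases, JAK1 (1.11, from probes at 0.36 and 1.86), PTPN3 (1.12), PTPN21 (2.32), PTPRB (1.03) and the B cell kinase BLK (1.96) were higher in RC-K8-R. PTPRH (-2.19), PTPRM (-1.98), PTPRZ1 (-1.63) and PTPRU (-1.10) were lower. Of 8 SOCS genes, SOCS4 was higher (1.34) and SOCS3 lower (-3.35). GAB3 was higher (2.27 on 1 probe). SOCS4 (1.41), BLK (1.05) and GAB3 (1.10) were 2-fold higher in untreated RC-K8-R as well. UBASH3A was lower there (-2.07). Between treated lines the SIRPA probes disagreed, from -0.11 to 2.05. PTPN21 differed here mainly through treated RC-K8, where it read -2.82 against -1.11 untreated.

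**Figure D4:**
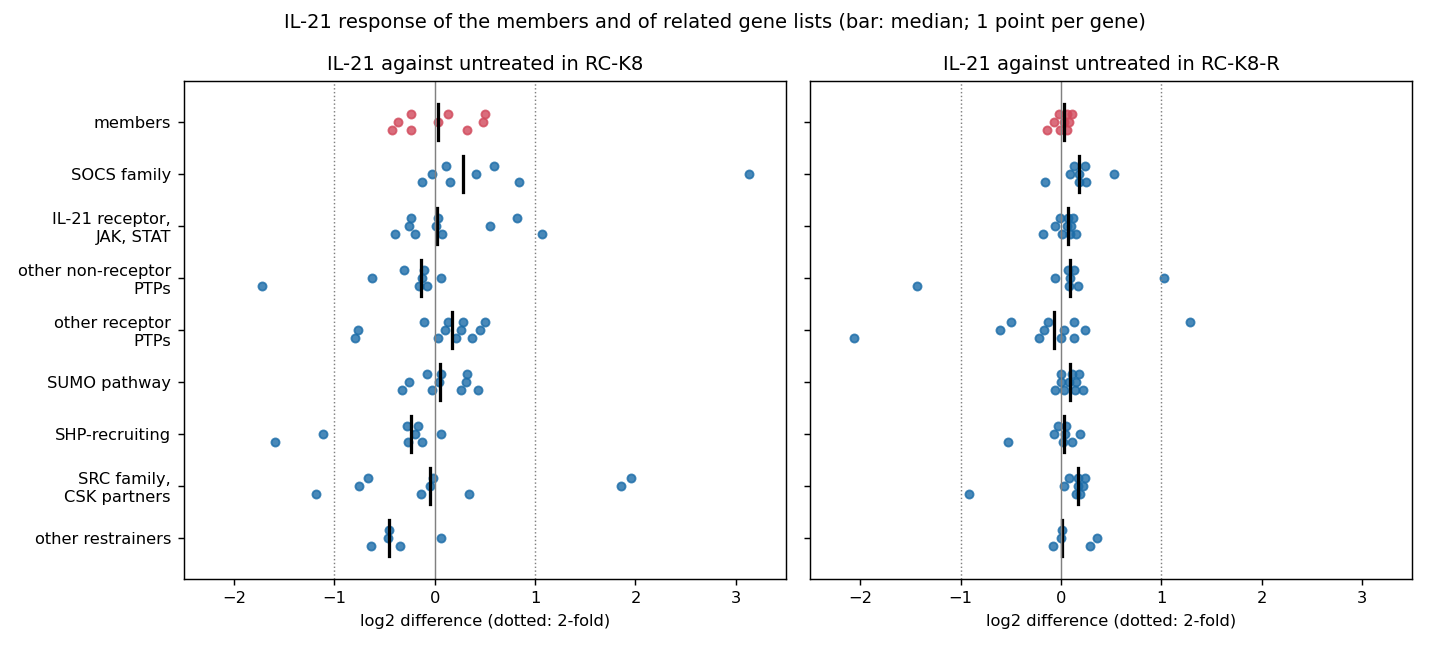
Log2 differences with IL-21 (x axis) in both lines for the 9 genes (red) and for 8 lists of related genes (blue), with 1 point per gene and a black bar for each median; vertical scatter has no meaning. SOCS3 (3.13), PAG1 (1.95), LYN (1.86) and STAT3 (1.07) stand to the right of the 2-fold line in RC-K8, while the 9 genes stay between -0.43 and 0.50.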

How the data were processed

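The authors deposited 1 log ratio per probe and array, read here as log2 of Cy5 sample over Cy3 reference, the direction the dyes in the labels give. No source used here states the log base, any centring or normalization, the scanner, the background correction or how spots were filtered. No spot brightness was analysed, and the number of arrays limits the precision. Gene names came from the platform annotation, which gave 1 symbol for 25570 probes and several for 28, did not list 5497, and can be old.

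The median of the 23260 probes measured on every array was subtracted from each array. Differences were formed for single probes, and a gene took the median of its probes (Python 3.11.15, pandas 2.3.3, numpy 2.4.6; loess from statsmodels 0.14.6, span 0.3, 3 iterations). A call is an absolute log2 difference of 1 (2-fold). There were 5 comparisons and 12 alternative settings. Members and gene lists were chosen with earlier results of these data known. Named genes were all members, list members at 2-fold (at most 4 per direction) and the 3 nearest profiles of 1 member. The script was tested on simulated data.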

Additional observations from a re-analysis of the deposited data

Results flagged for a closer look

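The rule was opposite signs of the IL-21 response in RC-K8 and RC-K8-R on every probe of a gene with 4 values. It was met by 3 genes, each with 1 such probe, so no agreement between probes was asked of them. The gene values of PTPN2 (0.49 and -0.01), PIAS1 (-0.43 and 0.11) and PIAS2 (0.04 and -0.14) also had opposite signs. Their probes did not all agree in sign, so the rule left them out. The share of all genes with opposite signs was not counted. In RC-K8-R 51.0% of all genes were above 0 and 48.9% below. With 1 array per condition the difference was not tested, and the responses of the 3 flagged genes in RC-K8-R were within 0.07 of 0. Subtracting the RC-K8 response from that of RC-K8-R gave -0.39 for PTPRC, from responses of 0.32 and -0.07. It gave 0.42 for PIAS3, from -0.37 and 0.06, although the PIAS3 probe that was blank in RC-K8 gave -0.29 in RC-K8-R. It gave 0.29 for PIAS4, from -0.23 and 0.06.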

How the results depend on the processing

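No paired analysis was possible because the labels carry no replicate numbers that groups share and each group has 1 array. Under the 12 alternatives, the number of the genes at 2-fold stayed at 0 for both IL-21 comparisons and for the difference of responses. Between untreated lines it was 1 with values read as natural logs and 1 at 1.5-fold, where 13.6% of all genes were higher. With every probe as its own feature it was 1 probe, against 14.7% of all probes. Between treated lines it was 1 gene if a gene took its highest-ratio probe and 1 with natural logs. At 1.5-fold it was 2 genes, where 18% of all genes were higher, and with every probe 2 probes, against 19.1%. Shares of all genes under the natural-log and highest-ratio settings are not given here, so nothing is read from those counts. None of 50 recomputed medians moved by more than the median SD between probes, though the one between untreated lines ranged from 0.11 to 0.43 and that between treated lines from -0.12 to 0.42. Of 405 recomputed gene differences, 23 moved by more than that SD and 16 took the other sign, all from genes with a main size of 0.32 or less. In RC-K8 with IL-21, PTPN1 ranged from 0.48 to 0.72, PTPN2 from 0.35 to 0.70, PTPRC from 0.28 to 0.47, PIAS1 from -0.62 to -0.43, PIAS3 from -0.53 to -0.29, PIAS4 from -0.33 to -0.20 and PTPN6 from -0.34 to -0.16, each with 1 sign. The upper sizes come from the natural-log reading, which enlarges every difference alike.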
